A study of Mus musculus with 24 samples.

Results

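The change in the efferent duct between E14.5 and E16.5, embryonic days 14.5 and 16.5, was taken from 4 of the 24 arrays of the series, 2 at each age. The arrays of each group were taken by their tissue and age labels. The series profiled total RNA, extracted with Trizol and labelled with biotin, on Affymetrix arrays, from 3 segments of the male tract of CD1 mice, namely efferent duct, epididymis and vas deferens. The animals carried no allele or treatment named in the labels, and each segment was collected on 3 embryonic days, E14.5, E16.5 or E18.5, and on postnatal day 1 (P1), with 2 arrays per group. The 4 arrays of epididymis and the 4 of vas deferens at the same ages served for the tests of whether a change differed between segments. Whether an array holds RNA of 1 animal or of several is not in the labels. The p-values therefore measure the spread between these samples only, which may be technical, and having 2 arrays per group limits the precision.

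The efferent ducts are fine tubules that join the rete testis to the head of the epididymis. They form from mesonephric tubules next to the Wolffian duct, the embryonic tube that androgens maintain in males and that becomes the epididymis and vas deferens. In the adult their lining holds absorptive cells, which take up most of the fluid leaving the testis through ion and water channels, a brush border of microvilli and endocytic receptors, and multiciliated cells, which stir the fluid.

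Each value below is the log2 of a deposited ratio, in which the signal of a probe set stands relative to its own median across the series. Such a value compares arrays within a gene and holds no abundance. Where a gene had several probe sets, the one with the largest variance over the 24 arrays was used. A gene is said to have risen or fallen, or to be called, when limma gave an adjusted p under 0.05 over the 18193 genes tested, and each log2 difference is E16.5 minus E14.5 with the SE of that fit.

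The 4 compared arrays stood apart from the rest of the series. Their hybridisation controls, added in equal amounts to every array, read -0.40 and -1.09 at E14.5 and -0.71 and -1.31 at E16.5, against -0.39 to 0.35 on the other 20 arrays. The ages overlapped in these controls, and the array numbered 2 was the lower in each age. The interquartile range of all log2 ratios was 0.48 to 0.61 on the 4 arrays and 0.18 to 0.43 on the others. The SD over genes of the difference between the 2 replicates was 0.37 at either age of the efferent duct, 0.21 and 0.18 at E14.5 and E16.5 in the vas deferens, and 0.43 and 0.15 in the epididymis. Replicates correlated across genes, which are not independent, at 0.783 and 0.808 in the efferent duct at the 2 ages, and at 0.423 in the epididymis at E14.5. On the second of those epididymis arrays the log2 ratios of 5′ minus 3′ probe sets were -1.02 for the added RNAs, -0.54 for Gapdh and -0.81 for Actb, against 0.36, 0.05 and 0.18 on the first, and its part in the comparisons with the epididymis was not tested beyond leaving it out. The fit takes the spread of a gene from all 24 arrays, which is a smaller spread than these 4 arrays show, so counts are also given for a fit that weights each array by its quality and for a fit of the 4 arrays alone.

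**Figure D1:**
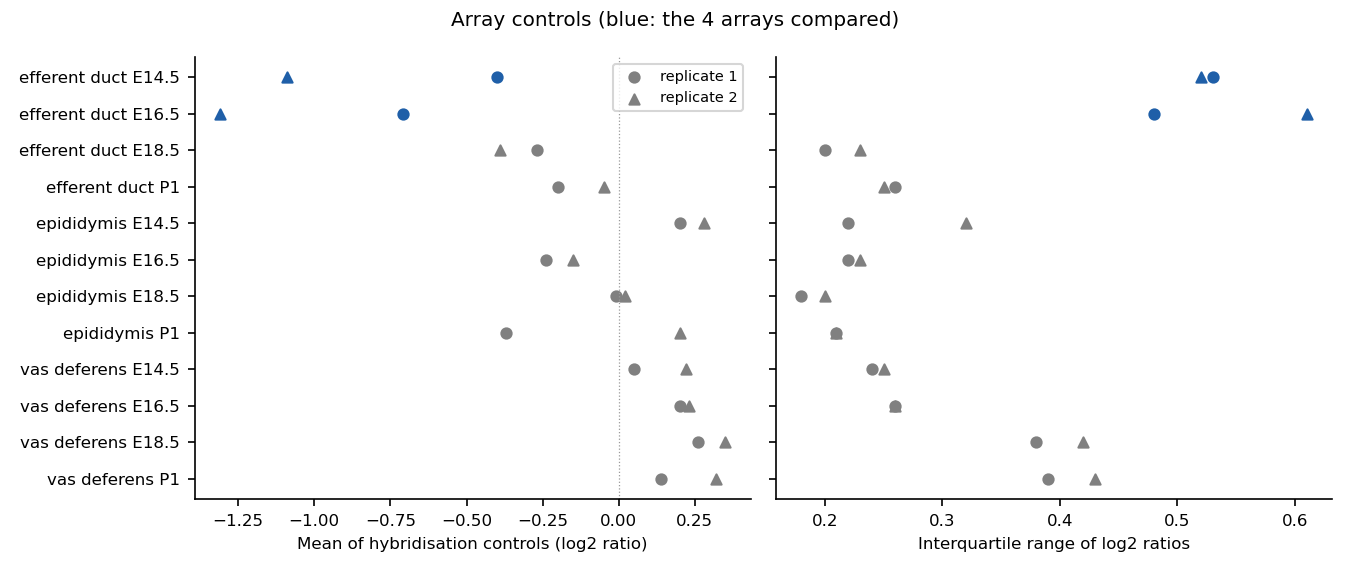
Mean log2 ratio of the hybridisation controls (left) and interquartile range of all log2 ratios (right) for each of the 24 arrays, by group, with circles for replicate 1 and triangles for replicate 2. The 4 compared arrays, in blue, had the lowest controls, -1.31 to -0.40, and the widest range, 0.48 to 0.61, and the 2 ages overlapped in their controls.

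The labelled tissue was checked against 12 markers of the segment, 8 of which had come from earlier results of these data and so are not independent evidence. Both efferent arrays lay above all epididymis and vas deferens arrays of the same age for 11 markers at E14.5 and 12 at E16.5. The exception at E14.5 was Cubn, the endocytic receptor cubilin. Margins were unequal. At E14.5 Pdzk1, an apical scaffold, averaged 2.70 against -0.17 in the epididymis and -0.76 in the vas deferens. Slc9a3, a sodium and proton exchanger, averaged 0.42 against 0.13 and 0.09. The share of all genes that meet this rule was not counted, and these efferent arrays had the widest spread, so the counts are a description.

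Between E14.5 and E16.5 the largest rises in the efferent duct were those of Lcn2, Alox12 and Defb19, and the largest falls those of the embryonic globins Hbb-y and Hba-x. Among gene lists, the epithelial adhesion and keratin list and the brush border list had the most rises, and the endothelial list had the most falls. Of the 18193 genes, 2234 were called (12.3%), of which 1364 were higher (7.5%) and 870 lower (4.78%) at E16.5. At 2-fold or more, 330 rose (1.81%) and 156 fell (0.857%). The median difference over all genes was 0.01, and 5% of genes lay below -0.53 and another 5% above 0.61. With array quality weights 533 genes were called (2.93%), 386 higher (2.12%) and 147 lower (0.808%), and from the 4 arrays alone 353 were called (1.94%), 253 higher (1.39%) and 100 lower (0.55%). Higher genes made up 61.1% of the calls. After the arrays were scaled to a common spread they made up 81% of 226 calls. The arrays of the ages did not overlap for 39.6% of all genes, so a lack of overlap by itself is a weak criterion here.

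Lcn2, a secreted lipocalin that binds bacterial siderophores, showed the largest rise. It read -1.47 and -3.01 at E14.5 and 2.32 and 2.27 at E16.5. The E16.5 arrays matched closely and lay far above either early array. The rise was 4.53 ± 0.36 (SE), or 23.1-fold, with an adjusted p of 1.18e-07.

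Alox12, the arachidonate 12-lipoxygenase, went from -0.39 and -0.48 to 3.93 and 3.94. Replicates at each age nearly coincided, and the rise was 4.37 ± 0.18, or 20.7-fold, with an adjusted p of 1.42e-10. Its other probe set differed by 0.20, so the rise rests on the probe set used. Defb19, of the beta-defensin family of small secreted peptides, read 0.17 and 0.13 at E14.5 and 3.86 and 4.14 at E16.5, a rise of 3.85 ± 0.27. Ptgds, the lipocalin-type prostaglandin D2 synthase that is secreted into luminal fluid, read 0.44 and 0.03 before and 3.52 and 3.35 after, a rise of 3.20 ± 0.22 that its other probe set showed at 2.37. The 15 largest rises and the 15 largest falls were taken only from genes whose ages did not overlap, so their lack of overlap adds no support.

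Detoxifying and metabolic enzymes took several of the other large rises. Aldh1a1, a retinaldehyde dehydrogenase, rose by 3.58 ± 0.26, from -2.75 and -3.82 to 0.45 and 0.14. The related Aldh1a7 rose by 3.08 ± 0.22. Gstm7, a glutathione S-transferase, rose by 3.16 ± 0.19, while its other probe set differed by -0.06. Sult1e1, which sulphates and so inactivates oestrogens, rose by 2.96 ± 0.29. Mt2, a metal-binding metallothionein, went from -0.50 and -0.72 to 2.33 and 2.34, a rise of 2.94 ± 0.15. Cndp1, a dipeptidase of carnosine, rose by 2.96 ± 0.37.

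The remaining large rises were a peptide transporter, an epithelial regulator and matrix genes. Slc15a2, the proton-coupled peptide transporter PEPT2, rose by 3.08 ± 0.16. Ehf, an ETS factor of epithelial cells, went from -2.53 and -2.73 to 0.53 and 0.20, a rise of 2.99 ± 0.21, and its 3 other probe sets had a median of 0.43. Dpt, the matrix protein dermatopontin, rose by 3.56 ± 0.22, Col4a4, a basement membrane collagen chain, by 3.0 ± 0.18, and Abi3bp, a matrix protein, by 2.90 ± 0.17. All 15 of these largest rises were also called with array weights and from the 4 arrays alone. Their adjusted p-values ranged up to 2.85e-05, that of Cndp1. The mean at E18.5 lay further up than at E16.5 for 13 of the 15, and for 73.2% of all 1364 genes called higher. The efferent duct arrays of E18.5 were unlike those of E16.5, with hybridisation controls of -0.27 and -0.39 and interquartile ranges of 0.20 and 0.23. The part of this contrast between arrays in such counts was not tested, and no share over all genes was taken.

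The largest fall was that of Hbb-y, an embryonic beta-like globin. It read 7.27 and 7.17 at E14.5 and 1.88 and 0.28 at E16.5. The early arrays were far above the late ones, which differed from each other by more than 1 log2 unit. The fall was -6.14 ± 0.38, or 70.6-fold, with an adjusted p of 5.97e-09. Hba-x, the embryonic alpha-like globin, read 3.34 and 3.50 and then 0.18 and 0.29, a difference of -3.18 ± 0.20. Both globins fell in the other segments as well, Hbb-y with -5.42 in the epididymis and -4.97 in the vas deferens. The differences between segments were not called for either globin, with adjusted p-values from 0.16 to 0.732.

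Among regulators, Foxp2, a forkhead transcription factor, read 2.30 and 2.56 at E14.5 and -0.21 and -0.33 at E16.5. The difference was -2.70 ± 0.18 with an adjusted p of 1.27e-08. The 5 other probe sets of Foxp2 had a median of -1.54. Hmga2, a chromatin protein of embryonic growth, differed by -2.55 ± 0.26, and by -2.34 and -1.82 in epididymis and vas deferens. Shisa3, an inhibitor of WNT and FGF receptor maturation, differed by -2.46 ± 0.18, which its other probe set showed at -2.25.

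Several secreted or surface proteins fell. Cxcl12, a chemokine that attracts CXCR4-bearing cells, read 0.56 and 0.91 and then -1.45 and -1.33, a difference of -2.13 ± 0.14 with an adjusted p of 1.03e-08. Its 2 other probe sets had a median of -0.29. Nts, the peptide neurotensin, differed by -2.19 ± 0.28, Ecm1, a secreted matrix protein, by -2.47 ± 0.16, Ndnf, a secreted neurotrophic factor, by -2.47 ± 0.19, and Clca3a1, of the chloride channel accessory family, by -2.71 ± 0.23. The other probe set of Ndnf differed by 0.05. Klhl4, of the kelch-like family, differed by -2.21 ± 0.26, and Atp2b1, a calcium pump of the plasma membrane, by -2.13 ± 0.31, against medians of -0.11 and -0.53 for their other probe sets.

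The remaining 3 of the 15 largest falls were less secure. S100a8 and S100a9, the subunits of calprotectin from neutrophils, read 2.76 and 3.42 on the first E14.5 array but 0.32 and 0.60 on the second. Their differences of -2.37 ± 0.58 and -2.42 ± 0.61 had adjusted p-values of 0.011 and 0.013, which became 0.19 and 0.132 with array weights. Without the first E14.5 array the differences were -1.15 and -1.01 and neither was called, and S100a9 was not called without the second E16.5 array either (adjusted p = 0.0975). Itga8, an integrin chain, differed by -2.14 ± 0.49, with an adjusted p of 0.00642 that became 0.0542 with weights.

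The mean at E18.5 lay further down than at E16.5 for 9 of the 15 largest falls, and for 31.6% of all 870 genes called lower. The limit given for the rises, that arrays of E16.5 and E18.5 differ in controls and spread, holds here too.

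**Figure D2:**
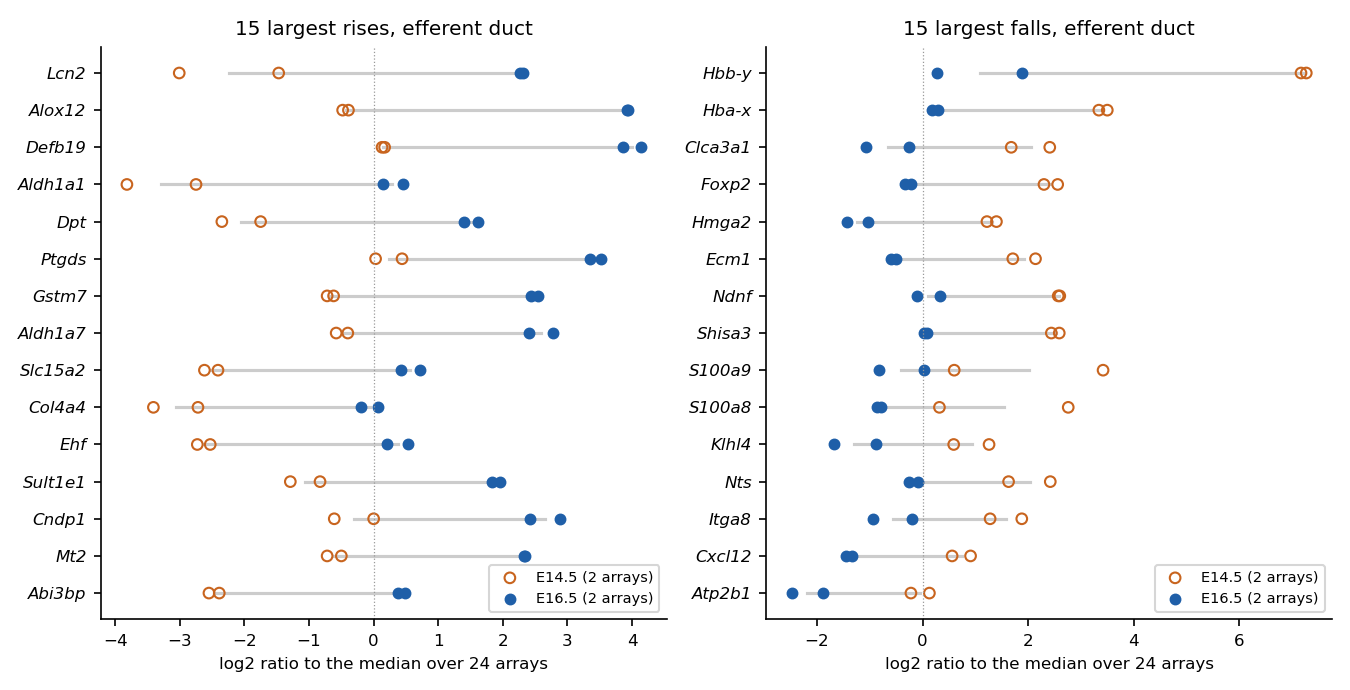
Log2 ratio to the median over 24 arrays for the 15 largest rises (left) and 15 largest falls (right) in the efferent duct, with open circles for the 2 arrays of E14.5, filled circles for the 2 of E16.5 and a grey line between the means. Genes were shown only if the ages did not overlap. Lcn2, with a rise of 4.53, and Hbb-y, with a difference of -6.14, lead the panels, and the E14.5 arrays of S100a8 and S100a9 lie far apart.

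The 12 segment markers, 8 of them picked from earlier results of these data, describe the segment and are no independent sign of a direction. Of these, 9 rose and 0 fell, with a median difference of 1.79, and 9 rose with array weights, 8 from the 4 arrays alone and 4 at a common spread. The mean log2 ratio of the 12 was 1.29 and 1.21 on the E14.5 arrays and 2.89 and 2.81 on those of E16.5. The median difference of the same genes was 0.05 in the epididymis and 0.15 in the vas deferens. In bulk tissue, more cells of a type and more RNA of a gene per cell cannot be told apart, here or in the lists that follow. Each list count stands beside the 7.5% of all genes that rose and the 4.78% that fell. These shares were 2.12% and 0.808% with array weights, and 1.39% and 0.55% from the 4 arrays alone.

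For ion and water transport, 12 of 41 measured genes rose and 0 fell, with a median of 0.21. Array weights left 8, the 4 arrays alone 7 and scaling to a common spread 5. Slc26a3, a chloride and bicarbonate exchanger, read 1.80 and 1.07 and then 4.47 and 4.09, a rise of 2.84 ± 0.24 with an adjusted p of 2.53e-07. Its 3 other probe sets had a median of 2.53. Aqp1, the water channel of the absorptive cells, went from 0.00 and 0.31 to 1.97 and 2.0, a rise of 1.83 ± 0.13, and reached 3.14 and 3.09 at E18.5. Both genes separated the ages without overlap.

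Other carriers of salt and acid rose with them. Kcnj15, an inwardly rectifying potassium channel, rose by 2.27 ± 0.17, Car2, a carbonic anhydrase, by 1.83 ± 0.19, and Slc4a4, a sodium bicarbonate cotransporter, by 1.69 ± 0.13. Slc9a3, the sodium and proton exchanger of the adult ducts, read 0.49 and 0.36 and then 0.23 and 1.00, with overlapping ages and an adjusted p of 0.556. Fxyd2, a modulator of the sodium pump, differed by 0.67 ± 0.26 and was not called (adjusted p = 0.112).

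Amino acid and peptide uptake was represented by few genes. Of 33 solute carriers known from the proximal tubule of the kidney, 3 rose and 0 fell, with a median of 0.08. Over all genes 7.5% rose, so as a list they hardly differed. The 3 rises were Slc15a2, Slc7a9, a cystine and dibasic amino acid transporter, and Slc37a4, the glucose 6-phosphate transporter. Slc7a9 read -0.07 and 0.64 at E14.5 and 2.70 and 2.63 at E16.5, a rise of 2.38 ± 0.17.

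In the endocytic list 7 of 15 genes rose and 0 fell, with a median of 0.29, and 4 rose with weights and 3 at a common spread. Lrp2, the multiligand receptor megalin, read 0.55 and 0.52 and then 2.34 and 2.58, a rise of 1.92 ± 0.18. The late arrays were far above the early ones, and its 2 other probe sets had a median of 0.80. Its partners were unequal. Amn, which carries cubilin to the surface, rose by 1.07 ± 0.17, Folr1, a folate receptor, by 1.28 ± 0.15 and Myo6, a motor of endocytic vesicles, by 1.73 ± 0.14. Cubn itself read 0.02 and 0.48 and then 0.20 and 0.63, a difference of 0.17 ± 0.22, and Dab2, an adaptor of megalin, differed by 0.01. Amn was not called from the 4 arrays alone (adjusted p = 0.0909).

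Of 26 brush border and microvillus genes, 14 rose and 0 fell, with a median of 0.52, against 8 with weights, 6 from the 4 arrays and 4 at a common spread. Pdzk1, a scaffold of apical transporters, read 2.68 and 2.71 and then 5.02 and 4.49, a rise of 2.06 ± 0.24. Vil1, the actin bundler villin, went from 1.80 and 1.54 to 3.26 and 3.20, a rise of 1.56 ± 0.14. Eps8, an actin regulator at microvillus tips, rose by 1.88 ± 0.17, and Clrn3, of the clarin family, by 1.37 ± 0.19. None of these 4 genes had overlapping ages.

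Promoter windows of the leading genes were searched because Hnf4a, a transcription factor of absorptive epithelia, was among the genes that rose. Hnf4a read 0.18 and 0.17 at E14.5 and 2.99 and 1.39 at E16.5, a rise of 2.01 ± 0.37 (adjusted p = 0.00135), with the late arrays apart from each other. It was called with weights (0.0412) and not from the 4 arrays alone (0.0774). The related Hnf4g went the other way, from 0.54 and 0.82 to 0.13 and 0.12, a difference of -0.55 ± 0.13 (adjusted p = 0.00632). Windows of 300 bases came from RefSeq on GRCm38.p6 and were found for 22 of 27 genes, namely the 15 largest rises, the segment markers and Hnf4a. Shown are the 150 bases before the start site of Slc26a3 (chr12:31438069-31438218, plus strand) and of Hnf4a (chr2:163547005-163547154, plus strand). The first holds a match to a site for HNF4 and to an arm of the site for HNF1, another factor of such epithelia. The second holds matches to that arm only. The match to an HNF4 site in Pdzk1 lies after its start site and is not shown. Capitals mark CAAAGGTCA and GTTAAT in the first and ATTAAC, the reverse complement of GTTAAT, in the second.
Slc26a3: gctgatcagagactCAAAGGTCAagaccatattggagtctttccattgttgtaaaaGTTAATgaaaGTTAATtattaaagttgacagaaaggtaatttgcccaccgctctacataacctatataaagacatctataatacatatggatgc
Hnf4a: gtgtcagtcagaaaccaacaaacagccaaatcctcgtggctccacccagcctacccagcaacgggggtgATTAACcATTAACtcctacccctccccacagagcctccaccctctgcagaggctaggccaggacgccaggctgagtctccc
CAAAGGTCA was found in the window of Slc26a3 and in 0.478% of all 32851 windows, both strands searched. The variant CAAAGTCCA was found in that of Pdzk1 and in 0.475% of all. The arm GTTAAT occurred in windows of 3 of the 22 genes, Slc26a3, Hnf4a and Aldh1a7, and in 7.1% of all windows. A gene was counted if any window of it matched, so counts of genes and percentages of windows are in unlike units. The whole palindrome, GTTAAT and ATTAAC with 1 base between them, contains that arm and was in 0 of the 22 and in 0.00913% of all windows. The steroid receptor arm TGTTCT was in 5 of the 22 and in 19% of all. Its palindrome, AGAACA and TGTTCT with 3 bases between them, was in 0 of the 22 and in 0.00913% of all windows. These are matches of letters, and binding was not measured.

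Most genes of the epithelial adhesion and keratin list rose, though few of its keratins did. Of 29 measured, 18 rose and 1 fell, with a median of 0.65, against medians of -0.10 in the epididymis and -0.44 in the vas deferens. With array weights 9 rose and 0 fell, and at a common spread 6 and 0. The list averaged -0.36 and -0.51 on the E14.5 arrays and 0.33 and 0.22 on the E16.5 arrays. Esrp1, an epithelial splicing regulator, read -2.57 and -2.87 and then -0.09 and -0.16, a rise of 2.59 ± 0.15. Dsg2, a desmosomal cadherin, rose by 1.51 ± 0.25, Prss8, a membrane protease, by 1.46 ± 0.16 and Dsp, which anchors keratins to desmosomes, by 1.35 ± 0.22. The member that fell was Cdh6, a cadherin of nephric epithelia, with a difference of -0.35. Among the keratins Krt7 rose by 0.96 ± 0.16. Krt8 (-0.20), Krt18 (0.22), Krt19 (-0.12), Krt5, Krt14 and Krt23 were not called. By the test of the difference, the change was larger than in the epididymis for 15 of the 29 (6.3% of all genes) and larger than in the vas deferens for 18 (8.49% of all genes).

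Of 28 tight junction genes, 11 rose and 2 fell, with a median of 0.37, and 5 rose and 2 fell with weights. After scaling to a common spread 0 rose and 1 fell, while the median was 0.21. Cldn2, the claudin that forms a cation and water pore, read 1.83 and 1.80 and then 3.76 and 3.47, a rise of 1.80 ± 0.22. Cldn9 rose by 1.72 ± 0.22 and Pard6b, a polarity protein, by 1.37 ± 0.18. Cldn4, a sealing claudin, went the other way, from 0.53 and 0.54 to -0.64 and -0.75, a difference of -1.23 ± 0.14. The other fall, of -0.93, was that of Cldn5, the endothelial claudin.

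The multiciliated programme showed no common movement. Of 15 regulators, 1 rose, Trp73 by 0.45, and 1 fell, Cep152 with -0.53, and the median was 0.02. Foxj1, the master factor of motile cilia, read 0.30 and 0.20 and then 0.10 and 0.18, a difference of -0.11 ± 0.11 (adjusted p = 0.575), and 0.83 and 0.65 at P1. Of 52 axoneme genes 3 rose and 4 fell, against 7.5% and 4.78% of all genes, with a median of 0.02. With weights 0 were called in either ciliary list, so these 9 calls did not hold under that fit.

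**Figure D3:**
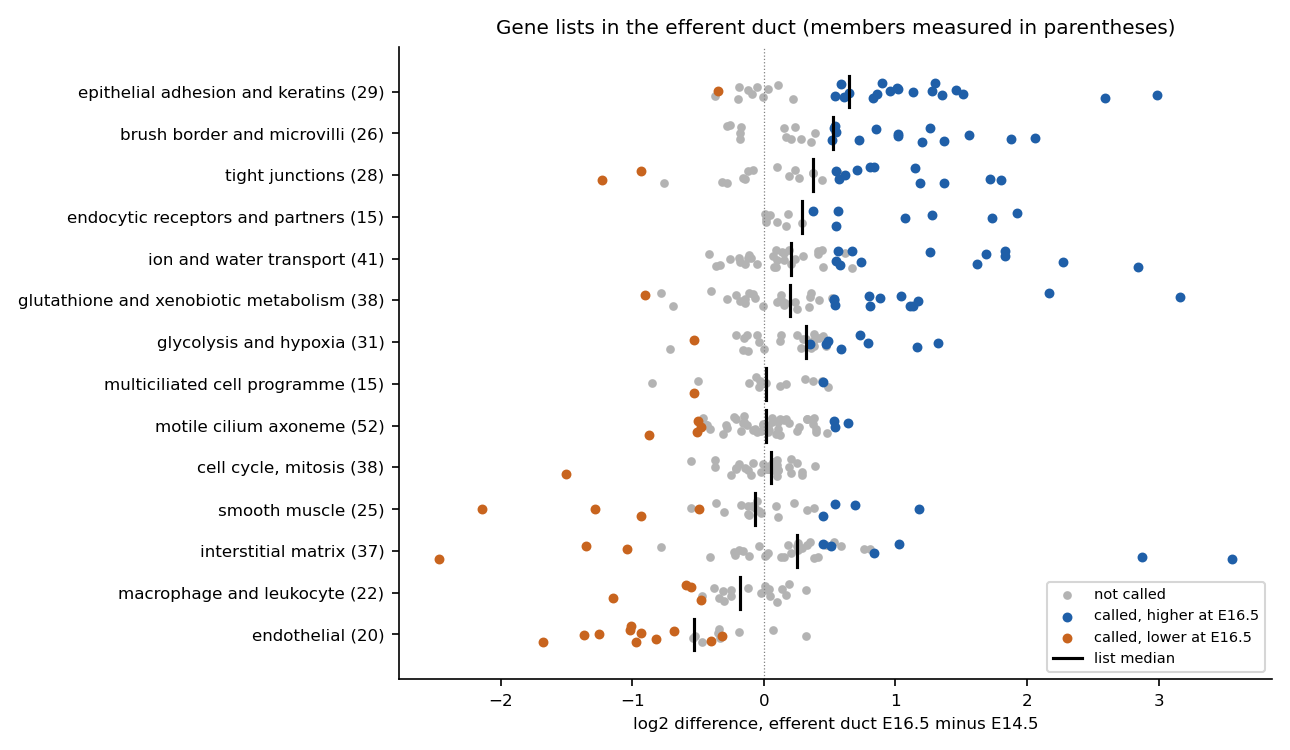
Log2 difference, E16.5 minus E14.5, of every measured member of 14 gene lists in the efferent duct, with called members in blue (higher) or orange (lower), others in grey and a black bar at the list median. The number of members measured is in parentheses, and points are spread vertically for visibility. Epithelial adhesion and keratins (median 0.65) and brush border (0.52) lie to the right, the endothelial list (-0.53) to the left, and both ciliary lists at 0.02.

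Among 26 transcription factors of nephric and Wolffian ducts, 6 rose and 7 fell. Lhx1, needed to form the Wolffian duct, read -1.88 and -2.12 and then 0.08 and 0.11, a rise of 2.10 ± 0.23. Pou3f3, a POU factor of nephron segments, rose by 1.57 ± 0.18, while its other probe set differed by -0.02. Foxc2, a mesenchymal forkhead factor, went from 1.17 and 1.42 to -0.35 and -0.11, a difference of -1.52 ± 0.13. Nr2f2, the nuclear receptor COUP-TFII of mesenchyme and veins, read -0.57 and -0.87 and then -2.13 and -2.23, a difference of -1.46 ± 0.12. Neither factor had overlapping ages. Anterior HOX genes, 3′ members of their clusters, rose in 4 of 19, led by Hoxd8 at 1.15 ± 0.11. Posterior HOX genes fell in 3 of 14 and rose in 0, the falls being Hoxa9 at -0.84, Hoxc9 at -0.83 and Hoxd11 at -0.55. With weights 2 anterior genes rose and 1 posterior gene fell. From the 4 arrays alone 1 anterior gene rose and 1 fell, and 0 posterior genes were called. Uncalled members included the anterior Hoxc8 at -1.08 ± 0.39 and the posterior Hoxa10 at 0.95 ± 0.36.

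WNT signalling genes moved in both directions. Wnt4, a ligand of mesonephric and gonadal development, read 1.21 and 1.63 and then 0.01 and -0.58, a difference of -1.71 ± 0.17. Wnt5a, a non-canonical ligand, differed by -0.95 ± 0.14 in the efferent duct and by 1.01 in the epididymis, and the difference between them was called at -1.97 (adjusted p = 1.29e-05). Sp5, a transcription factor induced by WNT, rose by 1.39 ± 0.17. Notum, a secreted WNT inhibitor, went from -0.94 and -0.49 to 0.43 and 0.50, a rise of 1.18 ± 0.20, whereas it differed by -1.36 in the epididymis. Over the list of 47, 8 rose and 6 fell with a median of 0.00, and 2 rose and 2 fell with weights.

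Of 42 BMP and TGF-beta genes, 3 rose and 5 fell, against 7.5% and 4.78% of all genes. Inhbb, the beta B subunit of inhibin and activin, read -0.71 and -0.79 and then 1.12 and 1.82, a rise of 2.22 ± 0.19, while its other probe set differed by 0.05. Bmpr1b, a BMP receptor, rose by 1.21 ± 0.12. Bmper, a secreted BMP modulator, went from 1.49 and 1.59 to -0.01 and 0.01, a difference of -1.54 ± 0.25. In the FGF and GDNF list of 25, 6 rose and 2 fell, led by Fgfr4, an FGF receptor, at 1.10, and Etv5, an ETS factor downstream of FGF, at 1.05. Only 1 of the 8 was called with weights. The Hedgehog and Notch list had 1 call among 28, Notch4, an endothelial Notch receptor, at -0.61. Of 29 planar cell polarity genes 3 rose and 7 fell, the largest being Ror1, a WNT receptor, at -0.96, and with weights 0 rose and 1 fell.

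The steroid list held 6 rises and 1 fall among 23 genes, and 4 rises with weights. Beside Sult1e1 these included Hsd11b2, which inactivates glucocorticoids, from -1.34 and -1.40 to -0.35 and -0.07, a rise of 1.16 ± 0.12. It differed by -0.75 in the epididymis and -0.82 in the vas deferens, and both differences between segments were called, at 1.91 and 1.98. Fkbp5, a glucocorticoid and androgen target that binds their receptors, rose by 1.08 ± 0.19, and Pgr, the progesterone receptor, by 0.94 ± 0.16. Neither was called from the 4 arrays alone, with adjusted p-values of 0.0682 and 0.118. In the retinoid list 3 of 21 rose and 5 fell. Rbp4, the retinol carrier, rose by 1.15 ± 0.16 beside Aldh1a1, and Crabp2, which delivers retinoic acid to its receptors, read 0.39 and 0.26 and then -0.66 and -1.18, a difference of -1.25 ± 0.17.

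Smooth muscle genes, whose products surround all 3 ducts, did not rise as a list in the efferent duct. Of 25, 4 rose and 4 fell, with a median of -0.07, against 0.58 in the epididymis and 0.41 in the vas deferens. By the tests of the difference, 11 of the 25 changed less than in the epididymis (5.17% of all genes) and 7 less than in the vas deferens (6.34% of all genes). Tagln, an actin-binding protein of smooth muscle, read 0.46 and 0.15 and then -0.20 and -0.17 in the efferent duct, a difference of -0.49 ± 0.12, against 1.55 in the epididymis. With weights 1 of the 25 rose and 0 fell, and Tagln was not called (adjusted p = 0.249).

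Interstitial matrix genes rose in 6 of 37 and fell in 3, with a median of 0.25, against 0.58 and 0.51 in epididymis and vas deferens. For 12 of the 37 the change was lower than in the epididymis (5.17% of all genes), and for 12 lower than in the vas deferens (6.34%). It was higher for 2 and 3 of the 37 (6.3% and 8.49% of all genes). Aspn, the small proteoglycan asporin, read -2.44 and -3.85 and then -0.12 and -0.42, a rise of 2.87 ± 0.38, and rose in the other segments by 3.85 and 3.03. In the basement membrane list 5 of 25 rose, led by Col4a4, and 2 fell, and the median was -0.03.

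Of 20 markers of endothelium 11 fell and 0 rose, with a median of -0.53, and 5 fell with weights, 4 from the 4 arrays alone and 3 at a common spread. The list averaged 0.01 and 0.04 on the E14.5 arrays and -0.61 on each E16.5 array. Tek, the angiopoietin receptor TIE2, read 0.24 and 0.16 and then -1.70 and -1.26, a difference of -1.68 ± 0.16 with an adjusted p of 1.32e-06. Emcn, the surface protein endomucin, differed by -1.37 ± 0.17, Sox17, a transcription factor of arteries, by -1.25 ± 0.16 and Plvap, of endothelial fenestrae, by -1.01 ± 0.14. Erg, an endothelial ETS factor, differed by -1.02 ± 0.26, and its other probe set by 0.37. The medians of the list were -0.03 in the epididymis and 0.08 in the vas deferens. By the tests of the difference, the change was lower than there for 6 and 9 of the 20 (5.17% and 6.34% of all genes). At E18.5 Tek read -0.30 and -0.63, above both E16.5 arrays.

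The embryonic globins fell without a fall of the whole erythroid list. Of 16 erythroid markers 3 fell, Hbb-y, Hba-x and Hbb-bh1, another embryonic globin, at -0.89 ± 0.15, and 2 rose. These were Hba-a1, an adult alpha globin, from 0.30 and 0.14 to 0.70 and 1.14, and Alas2, the haem synthesis enzyme of red cells, at 1.37 ± 0.16. The median was -0.07. Hba-a1 was not called with weights (adjusted p = 0.0663).

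Defb19, Ptgds and Inhbb are themselves on the list of testis markers. Of 18 Sertoli and rete testis markers 5 rose, Defb19, Ptgds, Inhbb, Sox9 and Gata4, and 1 fell, Wt1 at -0.70 ± 0.15. Sox9, the transcription factor of Sertoli cells that other epithelia also use, read 0.21 and -0.30 and then 1.58 and 0.89, a rise of 1.28 ± 0.19. Gata4, a GATA factor, rose by 0.38 ± 0.11. The 12 members not called included Amh, the Mullerian inhibiting hormone, at 0.12, Dhh, a Hedgehog ligand, at 0.11 and Fshr, the FSH receptor, at -0.19. Defb19, Ptgds and Inhbb had the largest rises of the list. The 15 markers left without them averaged 0.04 and 0.02 at E14.5 and 0.08 and 0.07 at E16.5. Their median difference was 0.03, and 2 of them rose and 1 fell. The part of testis cells in the rises of Defb19, Ptgds and Inhbb was not tested.

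Proliferation genes did not move as lists. Of 38 mitosis genes 0 rose and 1 fell, Smc4, a condensin subunit, at -1.50 ± 0.37, with 2 other probe sets at a median of -0.11. Of 35 DNA replication genes 1 rose, Chaf1b, a histone chaperone subunit, at 0.69, and 2 fell, Slbp, which binds histone mRNA, at -0.83 and E2f2, an E2F factor, at -0.51. The medians were 0.06 in both lists. Of 20 cell cycle inhibitors 1 rose, Cdkn2c at 0.55.

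In 977 genes (5.37%) the efferent change and its difference from the epididymis change were both called, and in 1232 (6.77%) the efferent change and its difference from the vas deferens change. Over all genes the change differed from that in the epididymis for 2087 genes (11.5%) and from that in the vas deferens for 2697 (14.8%). With array weights these became 442 (2.43%) and 1546 (8.5%). Of the 2087, 1146 were changed upward relative to the epididymis and 941 downward, and after scaling to a common spread 766 and 980. The rises that exceeded the changes of both other segments numbered 537 (2.95%) and such falls 258 (1.42%). The first of these differences depended on single epididymis arrays. Without the first or the second E14.5 array it covered 3546 or 1223 genes, and without the first or the second E16.5 array 1061 or 1076. The second fell to 1668 without the first E14.5 array of the vas deferens, and to 1791 or 1742 without the first or second of E16.5.

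Of the 15 largest rises, 12 also rose in the epididymis (8.15% of all genes did) and 9 in the vas deferens (7.07%). The difference between segments was called, in either direction, for 9 and 13 of them (11.5% and 14.8% of all genes). Of the 15 largest falls, 8 also fell in the epididymis (6.16% of all genes) and 5 in the vas deferens (7.05%). For 12 and 10 of them the difference between segments was called in either direction (11.5% and 14.8% of all genes). These 30 genes were chosen for the size of their efferent change, so the counts are a description. Lcn2 rose by 3.78 in the epididymis and Aldh1a1 by 3.19, and the differences between segments were not called (adjusted p = 0.37 and 0.535). Alox12 was of the opposite kind. It differed by 0.16 in the epididymis and 0.36 in the vas deferens, neither called, and the differences between segments were 4.21 (adjusted p = 4.27e-08) and 4.01 (3.8e-08). Ptgds differed by 0.27 and 0.16 there.

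Foxp2 differed by 0.10 in the epididymis and Cxcl12 rose there by 0.50, against -2.70 and -2.13 in the efferent duct. Nr2f2 rose by 1.03 in the vas deferens and differed by 0.01 in the epididymis.

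Some genes of smaller change had opposite directions in the segments. Cdh16, a kidney-type cadherin of duct epithelium, read -1.30 and -1.30 and then 0.03 and -0.08 in the efferent duct, a rise of 1.28 ± 0.13, and fell in the epididymis (-0.93) and vas deferens (-0.81). Myo5b, a motor of apical recycling, rose by 1.83 ± 0.17 and fell by 0.87 and 1.13 elsewhere, although its 2 other probe sets had a median of -0.12. Grb7, an adaptor of receptor kinases, rose by 1.60 ± 0.12 and fell by 0.41 and 1.15. Shisa2, related to Shisa3, read -0.57 and -0.36 and then 1.88 and 1.69, a rise of 2.25 ± 0.11 that its other probe set showed at 1.83, and fell by 0.77 in the epididymis. Htra1, a secreted protease, rose by 2.21 ± 0.13 against -0.02 and 0.14. Sostdc1, a WNT and BMP antagonist, differed by -0.61 ± 0.16 and rose by 1.18 and 3.02.

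**Figure D4:**
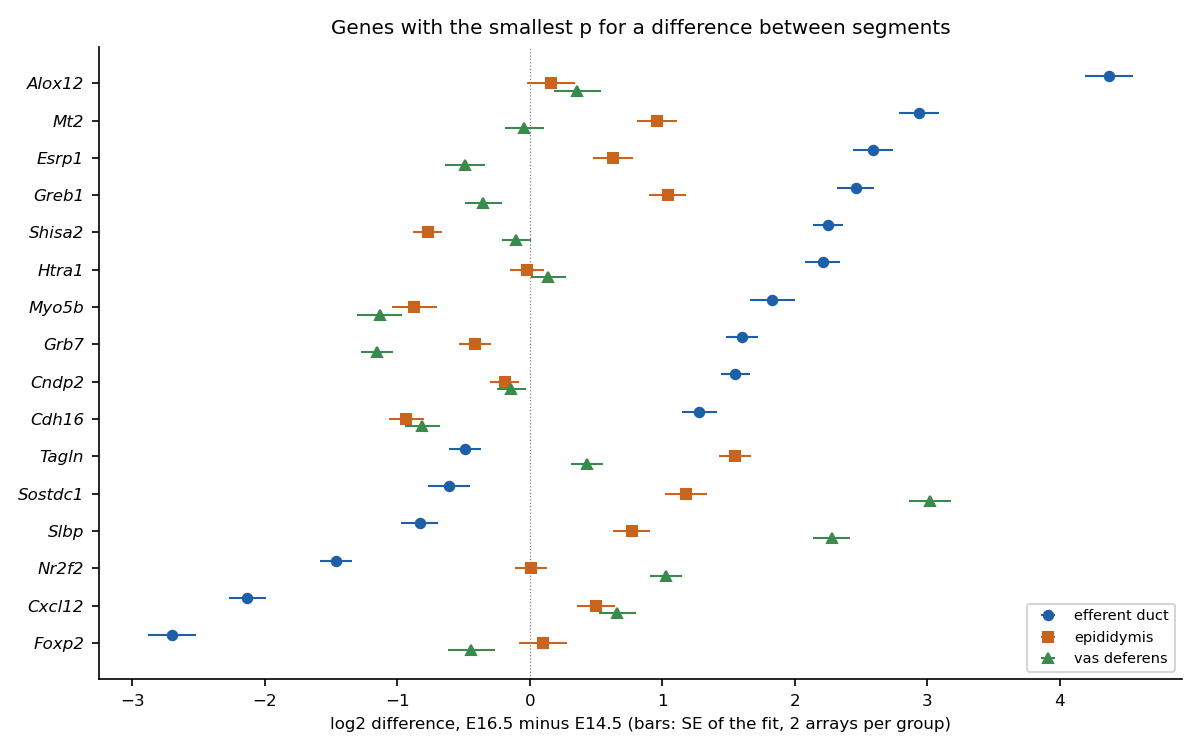
Log2 difference, E16.5 minus E14.5, in efferent duct (blue circles), epididymis (orange squares) and vas deferens (green triangles), with bars for the SE of the fit (2 arrays per group), for the 16 genes with the smallest p for a difference between segments. Alox12 rose by 4.37 in the efferent duct against 0.16 and 0.36 elsewhere, and Cdh16, Grb7 and Myo5b lie on opposite sides of 0.

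**Figure D5:**
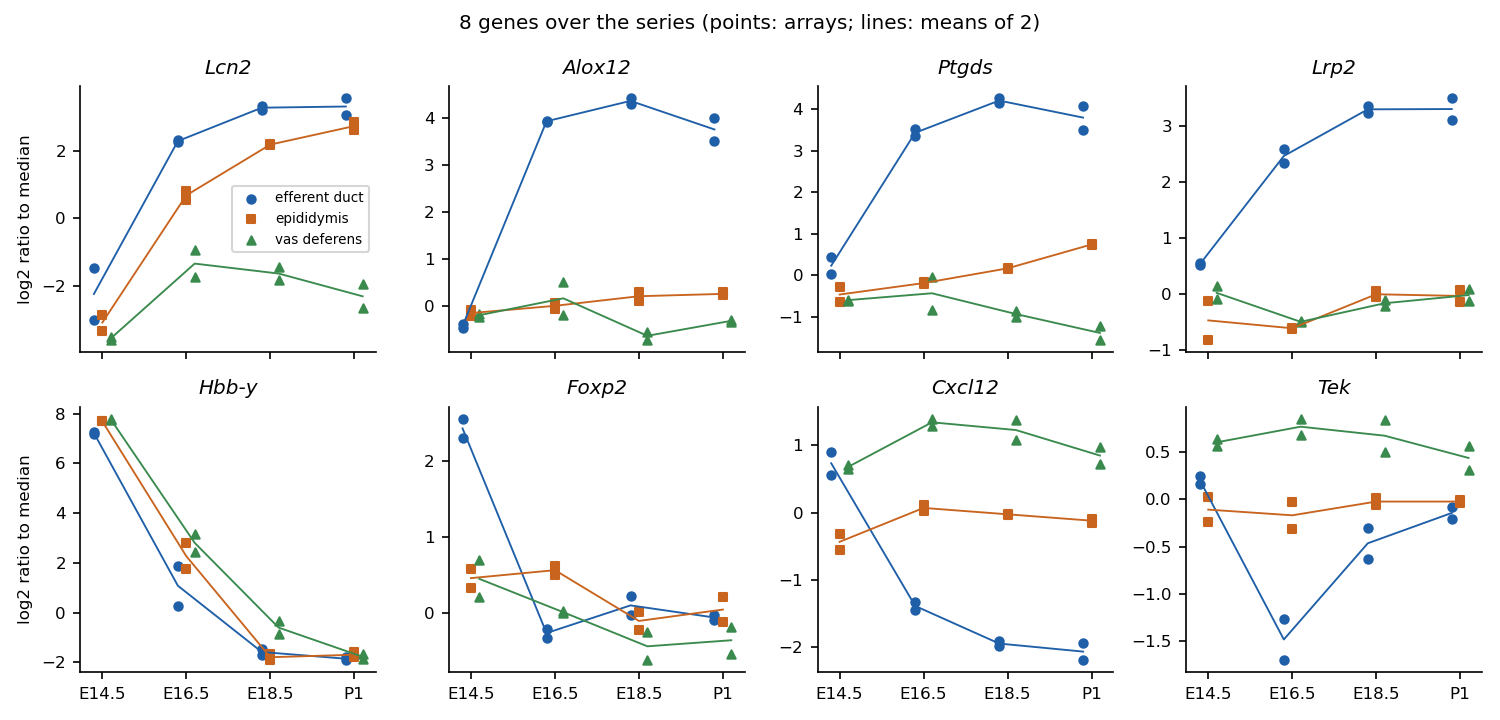
Log2 ratio to the median of 24 arrays for 8 genes in the 3 segments over the 3 embryonic ages and P1, each point an array and each line joining the means of 2. Most of the rise of Alox12, Ptgds and Lrp2 in the efferent duct falls between E14.5 and E16.5, Hbb-y falls in all segments, and Tek is lowest in the efferent duct at E16.5. Efferent duct arrays of E18.5 and P1 had a narrower spread than those of E14.5 and E16.5, whose part in these courses was not tested.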

How the data were processed

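Total RNA of 3 segments at 4 ages was hybridised to 24 arrays, 2 per group. Per the submitters' processing notes the authors used RMA (version and settings: not given in the sources used here). What the authors deposited is a linear ratio to the probe set's own median across the series: 45081 of 45101 medians were 1 within 1e-04. Such values hold no signal over background. Their log2 was taken. Of the probe sets, 64 controls, 932 with several symbols and 9160 with none were left out, and 34945 gave 18193 genes, each represented by the probe set of largest variance over the arrays, with no filter. A table of the array's annotation named them, and 34741 were matched to GRCm38.p6 gene identifiers.

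Group means were fitted with limma 3.58.1 (R 4.3.3) over all 24 arrays (12 groups), with two-sided moderated tests and Benjamini-Hochberg adjustment over all genes at 0.05. Differences between segments were contrasts of the same fit. Simulated data of 18193 genes carried known changes in the efferent duct. Recovery was 26.9% for genes changed by 0.5 (log2), 92.5% for those changed by 1 and 100% for those changed by 2. Among unchanged genes 11 were called. The noise of each gene was its spread within groups over all 24 arrays, which is smaller than the 4 compared arrays show. Recovery and false calls at the spread of those 4 arrays were not measured. Recovery may be lower there and false calls more numerous, so the 11 is no estimate of false calls among the 2234 genes called. Alternatives were other normalizations, probe set choices and sets of arrays, array quality weights, a replicate block and a stricter threshold. Equally numbered arrays were not taken as pairs, since their deviations correlated at 0.10 in the efferent duct, 0.18 in the epididymis and 0.05 in the vas deferens.

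The comparison, the 34 process and 12 marker lists and the rule for naming genes were chosen with earlier results of these data known. Genes were named if among the 15 rises or 15 falls of greatest size whose ages did not overlap, if among up to 5 called members per list by size, as any member of lists of at most 16, or for the 10 smallest p of each difference between segments, leaving out predicted genes. A few genes outside these rules, printed with small counts or beside related genes, were chosen after their values were seen.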

Additional observations from a re-analysis of the deposited data

Results flagged for a closer look

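The test of the difference itself set the following results apart. The efferent duct change differed from the epididymis change for 2087 genes and from the vas deferens change for 2697 genes. The efferent duct and the compared segment enter each difference with 2 arrays per age, and both differences share the efferent duct arrays.

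Against the epididymis, the 10 genes with the smallest p had differences of 4.21 for Alox12, 3.02 for Shisa2, 2.69 for Myo5b, 2.23 for Htra1, 2.20 for Cdh16, 2.01 for Grb7 and 1.74 for Cndp2, a dipeptidase related to Cndp1, and of -2.80 for Foxp2, -2.63 for Cxcl12 and -2.03 for Tagln. Against the vas deferens they were 4.01 for Alox12, 3.08 for Esrp1, 2.98 for Mt2, 2.81 for Greb1, a steroid-responsive gene, 2.76 for Grb7 and 2.35 for Shisa2, and -3.63 for Sostdc1, -3.10 for Slbp, -2.79 for Cxcl12 and -2.49 for Nr2f2. The 2 other probe sets of Slbp had a median efferent change of -0.01 against -0.83 for the one used. A group of 2 arrays is too small for a test of single arrays that stand apart from the rest of their group.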

How the results depend on the processing

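The 2234 genes called between the ages became 763 after quantile normalization (532 higher, 231 lower), 226 after scaling to a common spread (183 higher, 43 lower), 950 from the 8 efferent duct arrays, 353 from the 4 compared arrays, 533 with array quality weights, 3550 of 34945 when every probe set was tested and 1183 at an adjusted p under 0.01. Leaving out each of the 4 arrays gave 2121 to 2473, of which 1460 to 1523 were among the 2234. The fit with the replicate block, which ties equally numbered arrays, gave 2216 calls, and 199 of the 200 named genes that were called kept their call. Arrays numbered 1 alone gave 2401 and those numbered 2 alone 2517, an alternative chosen after seeing the data. Of the 200 named genes, 113 kept their call with weights, 97 from the 4 arrays, 146 from the 8 arrays, 129 after quantile normalization and 70 at a common spread. With the probe set chosen by variance over the other 20 arrays, H2-Ab1 turned to -0.07, Cox5b to -0.05 and Upk1b to -0.05.

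For the difference from the epididymis, 2087 genes became 442 with weights, 3443 with every probe set, 778 at an adjusted p under 0.01, 1061 to 3546 when arrays were left out and 2093 with the replicate block. For that from the vas deferens, 2697 became 1546 with weights, 4335 with every probe set, 1367 at 0.01, 1668 to 3036 when arrays were left out and 2686 with the block. The cause of these shifts was not tested. Values centred on the median give no signal over background, so no limit from dim probes can be set.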

Other observations

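Detoxification and energy genes moved in part. Of 38 genes of glutathione and xenobiotic metabolism 12 rose and 1 fell, with a median of 0.20, but the list had medians of 0.30 in the epididymis and 0.22 in the vas deferens. Ephx1, the microsomal epoxide hydrolase, read -0.86 and -1.44 at E14.5 and 0.87 and 1.18 at E16.5, a rise of 2.17 ± 0.15, and the fall was that of Cyp2s1, a cytochrome P450, at -0.90. With array weights 5 rose and 1 fell. Of 31 glycolysis and hypoxia genes 8 rose and 1 fell, with a median of 0.32. Bnip3, a mitochondrial hypoxia target, went from -0.64 and -0.86 to 0.63 and 0.51, a rise of 1.32 ± 0.12, and Ndrg1, another, rose by 1.16 ± 0.21. The fall was that of Epas1, the factor HIF2A that endothelium expresses, at -0.53, and 2 of the list rose with weights. In the cholesterol and fatty acid list 5 of 28 rose and in oxidative phosphorylation 1 of 38, which were 1 and 0 with weights.

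Of 22 genes of insulin-like growth factor signalling 6 rose and 2 fell, and with weights 3 and 1. The rises were the binding proteins Igfbp1, Igfbp2, Igfbp6 and Igfbp7 and the proteases Pappa and Pappa2, which cleave such proteins, while Igfbp3 (0.26), Igfbp4 (-0.18) and Igfbp5 (-0.90) were not called. Igfbp1 read -0.45 and -0.40 and then 1.53 and 1.17, a rise of 1.77 ± 0.16, and Igfbp2 rose by 1.46 ± 0.13 while it differed by 0.13 in the epididymis. Of 21 imprinted growth genes 0 rose and 3 fell, led by Nnat, the membrane protein neuronatin, at -1.62 ± 0.22. Of 26 secreted proteins known from the adult epididymis 7 rose and 0 fell, with a median of 0.02, and beside Lcn2 and Ptgds these included the whey acidic protein family members Wfdc15b at 1.72 ± 0.16 and Wfdc2 at 1.31 ± 0.17.

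Immune, stress and other marker lists are set against 7.5% of all genes called higher and 4.78% called lower. Antigen presentation and interferon genes rose in 3 of 34 and fell in 1, complement genes rose in 3 of 18, macrophage and leukocyte markers fell in 4 of 22 and rose in 0, and immediate early genes rose in 2 of 26 and fell in 5. With weights these were 1 rise, 0, 1 fall and 0 calls. Markers of other tissues gave 2 of 12 for Leydig and adrenal cells, 3 of 24 for skeletal muscle and 3 of 15 for kidney, all rises, and 2 of 18 for germ cells, both falls. With weights these were 0, 0, 1 and 0. Adipocyte markers rose in 1 of 12 and fell in 2, and mesothelial markers rose in 3 of 14 and fell in 1, which were 0 calls and 1 rise with weights. Of 21 neural and Schwann markers 2 rose and 2 fell, and with weights 1 and 1. Stmn2, a neuronal tubulin regulator, read 0.08 and 0.44 and then -2.04 and -1.30, a difference of -1.93 ± 0.24 that its other probe set showed at -1.51. Erbb3, a neuregulin receptor of Schwann cells and epithelia, rose by 1.72 ± 0.21, and its other probe set differed by -0.28.

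Of the 30 genes with the largest changes 17 had other probe sets, whose median had the same sign for 15 and was at least 1 in the same direction for 9.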
